A study of Gallus gallus with 6 samples.

Results

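The genes described here are members of the selenoprotein and glutathione peroxidase families and the thioredoxin reductase gene TXNRD1, measured in cultured chicken primordial germ cells (PGCs). Of 10 listed symbols, 9 had exactly 1 row in a table of 23873 genes: SELENOP1, SELENOI, SELENOK, SELENOO, SELENOT, GPX1, GPX3, GPX4 and TXNRD1. SELENON had no row under that symbol and was not analysed here. SELENOP1 was picked on its measured rise between the groups, so its values are given as a description with no test. The other 8 were listed by family name, with earlier results of these data known, and were tested. Coordinates are as the table gives them, on the build GRCg6a named in the submitters' processing notes.

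Expression was compared between somatic differentiated PGCs (3 libraries) and undifferentiated PGCs (3 libraries), numbered 1 to 3 in each group, and values below follow that order. All cells derived from PGCs drawn from embryonic chicken blood at stage 16 of the Hamburger and Hamilton series, and the medium described for them held human FGF2, the kinase inhibitor H1152, Blebbistatin, chicken serum and B-27. The somatic differentiated cells were the adherent ones, kept after the floating undifferentiated cells had been drawn off and grown on for 2 to 3 weeks. No genotype, strain or sex was given, and whether the 3 libraries of a group came from separate embryos or lines was not stated, so p-values measure only the spread between these libraries. The comparison belongs to the question of which pathways are active when PGCs turn into somatic cells.

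Selenoproteins carry selenocysteine, an amino acid in which selenium takes the place of the sulfur of cysteine and which is inserted at UGA codons that otherwise end translation. Glutathione peroxidases use glutathione to reduce hydrogen peroxide and lipid hydroperoxides, and thioredoxin reductases keep thioredoxin in its reduced form. Selenoprotein P is a secreted selenium carrier, made mainly by the liver in mammals, while several small selenoproteins sit in the endoplasmic reticulum membrane.

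Levels are in TPM, an abundance unit corrected for transcript length and scaled to the same total for each library. Read numbers cannot be recovered from it, so depth was unknown and counting error is not given. In bulk RNA, fewer cells expressing a gene and less of its RNA per cell cannot be told apart. Between 12530 and 12993 genes reached 1 TPM in somatic differentiated libraries and between 12342 and 12975 in undifferentiated libraries. The summed TPM of 10 germ cell markers was 1624 to 2288 in somatic differentiated libraries, against 6084 to 6705 in undifferentiated libraries. For 12 mesenchymal markers the sums were 21494 to 29292 TPM in somatic differentiated libraries, against 1990 to 2584 TPM in undifferentiated libraries. VIM made up most of them, with 18878, 27262 and 24094 TPM in somatic differentiated libraries, against 1773, 1682 and 2172 TPM in undifferentiated libraries. All 10 germ cell markers passed the test as lower and 11 of the 12 mesenchymal markers as higher. The part of these shifts in the changes below was not tested. Undifferentiated library 2 stood apart from its group: it was the highest of the 3 for GPX1, GPX4, SELENOT and SELENOK and the lowest for SELENOP1, TXNRD1, SELENOO and SELENOI, and values without it are given beside the members they move most.

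A gene passed the test at a limma adjusted p under 0.05 over all 12996 genes tested. Of the 8 family members, 2 passed as higher in somatic differentiated cells (GPX3 and TXNRD1) and 3 as lower (GPX1, SELENOT and SELENOO), while GPX4, SELENOK and SELENOI did not pass. Over all genes tested, 17.9% passed as higher and 22.0% as lower. With a minimum log2 change of 1 added, 2 of the 8 were called higher and 0 were called lower, against 13.2% and 7.77% of all genes. At an unadjusted p under 0.05 the limma fit gave 4 members lower, none of them by 1 or more, and GPX3 and TXNRD1 higher. The share of all genes at this unadjusted threshold is not given here, and the shares above do not apply to it. With 8 members these counts are a description and set the family apart from no other genes. The median log2 change of the 8 was -0.27, beside -0.11 for all genes tested. Scaling by the median of ratios moved that overall median up by 0.11 and turned the balance of genes passing into 2886 higher and 2278 lower, where without it 2331 were higher and 2854 lower. The count of genes passing as lower was 1827, 1811 and 1542 without somatic differentiated library 1, undifferentiated library 1 and undifferentiated library 3. Without undifferentiated library 2 that count was 4150.

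**Figure D1:**
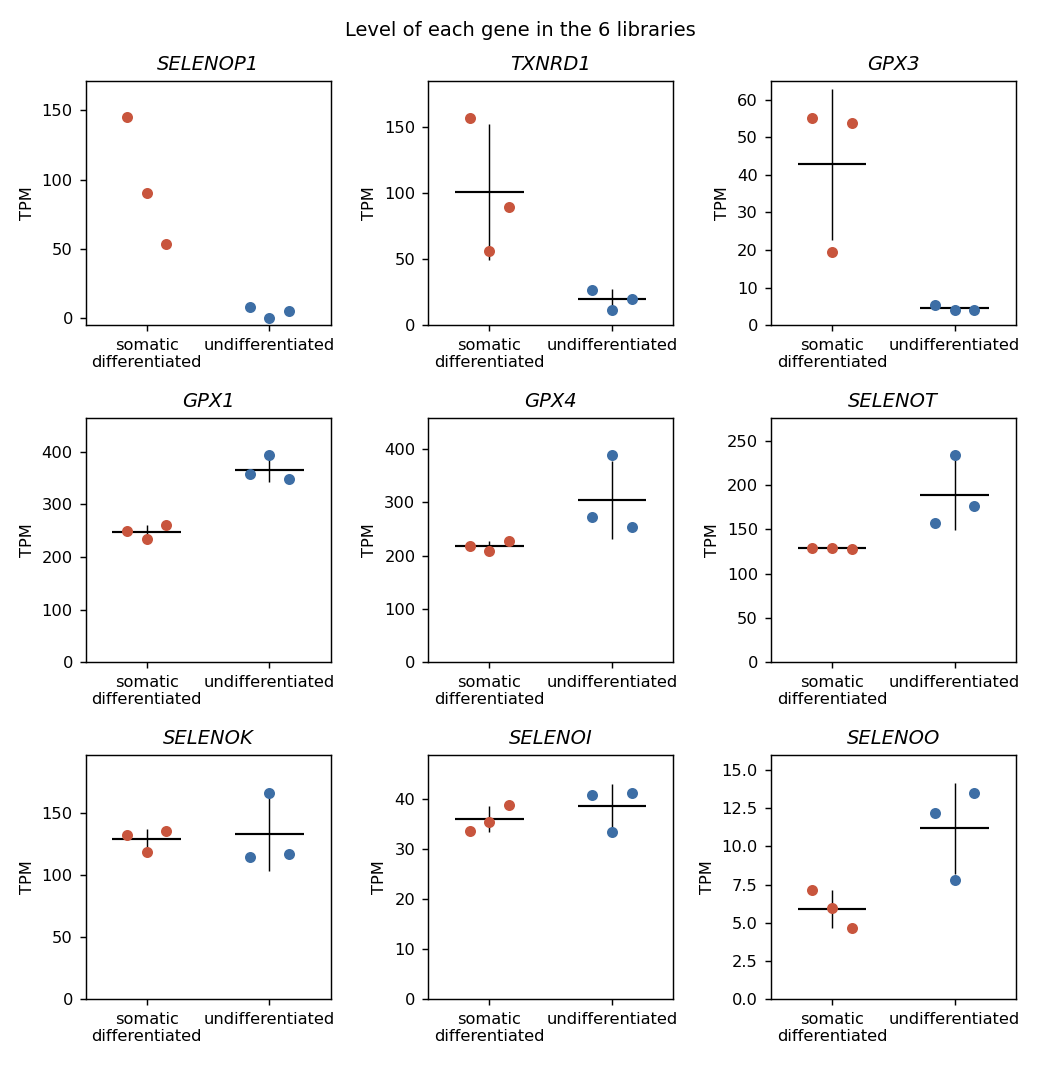
TPM (y axis, starting at 0, or just below it for SELENOP1) of the 9 genes in somatic differentiated (left, red) and undifferentiated (right, blue) libraries, 1 to 3 from left to right in each group. Each point is 1 library, and bars show the mean ± SD (n = 3 each) except for SELENOP1, which is listed at 0 in undifferentiated library 2. SELENOP1, TXNRD1 and GPX3 lie higher in every somatic differentiated library, and GPX1, GPX4, SELENOT and SELENOO lie lower. Of these, SELENOP1 was picked on its rise and GPX4 did not pass the test. The share of all genes whose groups lie apart in this way is not given here.

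SELENOP1, the gene of the secreted selenium carrier selenoprotein P (ENSGALG00000047578, chromosome Z, 13587877 to 13593542, minus strand), was the member picked on its rise. It stood at 145, 90.7 and 53.7 TPM in somatic differentiated libraries, against 8.22, 0 (listed at 0) and 5.13 TPM in undifferentiated libraries. The lowest somatic differentiated library lay well above the highest undifferentiated one, and the difference on the log2(TPM + 1) scale was 4.55. Without undifferentiated library 2, where the gene is listed at 0, the difference was 3.58.

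SELENOP1 does not stand alone in the annotation. An unnamed protein-coding gene on the same strand (ENSGALG00000014857, chromosome Z, 13587893 to 13596605) shares 5650 of the 5666 bases that SELENOP1 spans. The unnamed gene was at 328, 264 and 235 TPM in somatic differentiated libraries, against 14.9, 20.2 and 15.8 TPM in undifferentiated libraries. It was higher than SELENOP1 in all 6 libraries, and held 69.4%, 74.5% and 81.4% of their joint TPM in somatic differentiated libraries, against 64.4%, 100% and 75.5% in undifferentiated libraries. How reads over the shared bases were divided between these gene models cannot be seen from TPM, and the value of 0 for SELENOP1 stands in a library where its partner was at 20.2 TPM. The joint TPM was 473, 355 and 289 in somatic differentiated libraries, against 23.1, 20.2 and 21.0 in undifferentiated libraries. These sums averaged 372 ± 93.6 TPM in somatic differentiated cells and 21.4 ± 1.48 TPM in undifferentiated cells (SD, n = 3 each). The difference of the sums on the log2(TPM + 1) scale was 4.03, and the ratio of the means was 17.4.

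**Figure D2:**
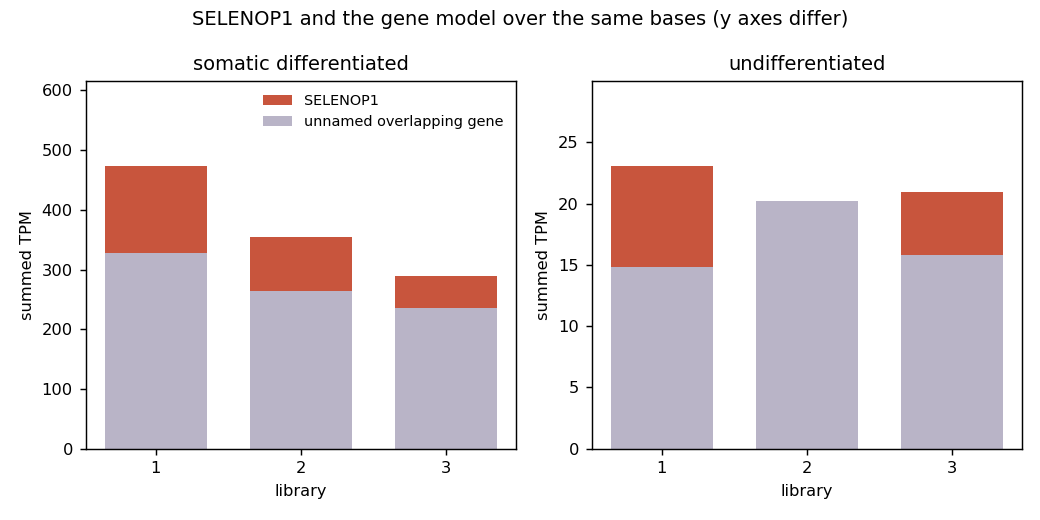
Summed TPM (y axis, from 0, with different ranges in the panels) of SELENOP1 (red) and of the unnamed gene over nearly the same bases (grey) in somatic differentiated (left) and undifferentiated (right) libraries 1 to 3. The grey part is the larger one in all 6 libraries, and in undifferentiated library 2 it makes up the whole bar of 20.2 TPM.

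Markers of liver and yolk sac endoderm, tissues that secrete plasma proteins, were read beside SELENOP1. Their sum over 8 genes was 190.1, 57.4 and 124 TPM in somatic differentiated libraries, against 13.9, 14.02 and 12.1 TPM in undifferentiated libraries. APOA1, an apolipoprotein gene, made up most of the somatic differentiated sums with 184, 55.0 and 120.2 TPM. ALB, the serum albumin gene, stood at 0.939 to 1.08 TPM in somatic differentiated libraries, against 1.15 to 1.78 TPM in undifferentiated libraries, and FGA was listed at 0 in every library. Of the 8 genes, 4 stayed under 1 TPM in all 6 libraries.

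SELENOP2 on chromosome 8, listed as a long noncoding RNA in the table and sharing the name of the second selenoprotein P gene of birds, stood at 27.7, 5.87 and 20.7 TPM in somatic differentiated libraries, against 9.04, 5.22 and 4.04 TPM in undifferentiated libraries. Its groups overlapped and its log2 change of 1.25 did not pass (limma adjusted p 0.11).

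The genes whose profiles lay closest to SELENOP1 over the 6 libraries were NINJ2, TTC9 and ARHGAP31. SELENOP1 was picked on its rise, so the rise of genes close to it is no separate result. The profile used was that of its own row, not the joint TPM with the overlapping gene. Closeness was the root mean square distance between log2(TPM + 1) profiles centred on their own means, over 8331 candidate genes with a symbol. It was 0.974 for NINJ2, 1.02 for TTC9 and 1.03 for ARHGAP31. NINJ2 stood at 90.6, 64.0 and 55.3 TPM in somatic differentiated libraries, against 5.74, 3.61 and 5.27 TPM in undifferentiated libraries. Its profile lay furthest from that of SELENOP1 in undifferentiated library 2, where SELENOP1 was listed at 0. The distances were not taken without that library. With a pseudocount of 5, SCG2 took the place of ARHGAP31, and with 0.1, CDKN2C took that of TTC9.

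GPX3 encodes the secreted, plasma form of glutathione peroxidase (ENSGALG00000004521, chromosome 13, 13762915 to 13764542). GPX3 was at 55.1, 19.5 and 53.8 TPM in somatic differentiated libraries, against 5.49, 4.03 and 4.003 TPM in undifferentiated libraries. The groups did not overlap, although somatic differentiated library 2 was at well under the level of the other two. The rise of GPX3 was 2.86 on the log2 scale (SE 0.41, limma adjusted p 0.00275), with means of 42.8 ± 20.2 TPM in somatic differentiated cells and 4.51 ± 0.852 TPM in undifferentiated cells (SD, n = 3 each).

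GPX1, the abundant cytosolic glutathione peroxidase (ENSGALG00000028204, chromosome 12, 3241004 to 3242538), went the other way. Its levels were 249, 234 and 261 TPM in somatic differentiated libraries, against 357, 393 and 347 TPM in undifferentiated libraries. The groups were tight and well apart, and the log2 change was -0.56 (SE 0.10, limma adjusted p 0.00641). Means were 248 ± 13.7 TPM in somatic differentiated cells and 366 ± 24.0 TPM in undifferentiated cells (SD, n = 3 each). Under median of ratios scaling GPX1 no longer passed (-0.44, adjusted p 0.0974, in a range of 0.000905 to 0.0974 over the alternatives run). Relative to the median of all genes, GPX1 lay at -0.45.

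GPX4 reduces lipid hydroperoxides within membranes and guards cells against ferroptosis, a form of death driven by lipid peroxidation (ENSGALG00000002595, chromosome 28, 3034833 to 3036390). It was at 218, 208 and 228 TPM in somatic differentiated libraries, against 272, 388 and 254 TPM in undifferentiated libraries. Each somatic differentiated library was below each undifferentiated one, but undifferentiated library 2 stood far above its own group. The log2 change of -0.45 (SE 0.17) did not pass, at a limma adjusted p of 0.0717. Without undifferentiated library 2 it was -0.27 (adjusted p 0.0503), and with libraries weighted by their scatter it was -0.30 and passed (adjusted p 0.0339, in a range of 0.0339 to 0.332 over the alternatives run).

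As a sum, GPX1, GPX3 and GPX4 came to 522, 461 and 543 TPM in somatic differentiated libraries, against 634, 785 and 605 TPM in undifferentiated libraries. GPX3 made up 10.6%, 4.22% and 9.92% of that sum in somatic differentiated libraries, against 0.867%, 0.514% and 0.662% in undifferentiated libraries, without overlap. The GPX4 share was 43.0% ± 1.86 in somatic differentiated cells and 44.7% ± 4.08 in undifferentiated cells (SD, n = 3 each). This difference of -1.78 percentage points was smaller than the spread (two-sided exact permutation p 0.6, where 3 libraries against 3 allow no p under 0.1). Taken of the summed TPM of all 8 tested members, the GPX4 share differed by -4.21 percentage points, at the smallest p this design allows (two-sided exact permutation p 0.1). That larger sum also holds TXNRD1, which rose, as did GPX3. A share falls when other members of its sum rise, and the part of TXNRD1 and GPX3 in this difference was not tested. Without undifferentiated library 2 the share of the 3 peroxidases was 0.57 points higher in somatic differentiated cells. The ratio of GPX1 to GPX4 was 1.14 ± 0.0116 in somatic differentiated cells and 1.23 ± 0.191 in undifferentiated cells (SD, n = 3 each), and undifferentiated library 2, at 1.01, lay lowest of all 6.

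**Figure D3:**
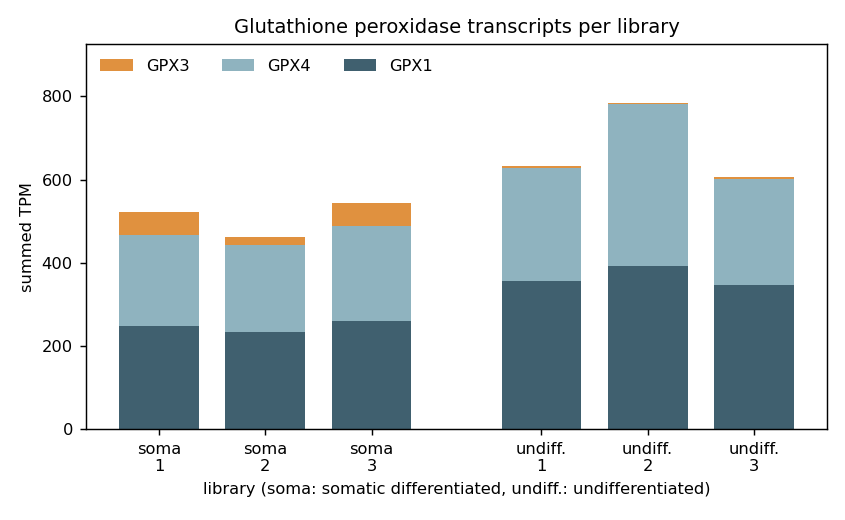
Stacked TPM (y axis, from 0) of GPX1, GPX4 and GPX3 in each library, with somatic differentiated libraries on the left. The sums are 461 to 543 TPM in somatic differentiated libraries and 605 to 785 TPM in undifferentiated libraries, and the GPX3 segment is thick enough to see clearly in the bars on the left.

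TXNRD1 encodes the cytosolic thioredoxin reductase, itself a selenoprotein (ENSGALG00000035345, chromosome 1, 54584006 to 54620980). Its TPM was 157, 55.7 and 89.6 in somatic differentiated libraries, against 26.7, 11.7 and 20.1 in undifferentiated libraries. The groups did not overlap, and within each group library 1 was the highest and library 2 the lowest. TXNRD1 rose by 2.26 on the log2 scale (SE 0.42, limma adjusted p 0.00675), and by 1.95 without undifferentiated library 2. Means were 101 ± 51.3 TPM in somatic differentiated cells and 19.5 ± 7.54 TPM in undifferentiated cells (SD, n = 3 each). A pseudogene overlaps it on the opposite strand and was listed at 0 in every library.

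Neither of the other thioredoxin reductase genes passed as higher. TXNRD2, the mitochondrial form, stood at 13.2, 12.2 and 11.8 TPM in somatic differentiated libraries, against 8.78, 6.41 and 9.10 TPM in undifferentiated libraries. Its somatic differentiated libraries lay higher without overlap, but the log2 change of 0.57 did not pass (limma adjusted p 0.0573). TXNRD3, the thioredoxin-glutathione reductase known from mouse testis, fell, with 106, 128 and 88.6 TPM in somatic differentiated libraries, against 160.4, 188 and 174 TPM in undifferentiated libraries (log2 change -0.70, limma adjusted p 0.0131).

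Of the selenoproteins of the endoplasmic reticulum, SELENOT, a thioredoxin-like membrane protein (ENSGALG00000010399, chromosome 9, 23785352 to 23791069), had the least spread of the 9 genes among somatic differentiated libraries. It stood at 129.2, 128.6 and 127.6 TPM in somatic differentiated libraries, against 157, 233 and 176 TPM in undifferentiated libraries. The groups did not overlap, and the scatter lay almost wholly on the undifferentiated side. SELENOT fell by 0.53 on the log2 scale (SE 0.16, limma adjusted p 0.0342). Without undifferentiated library 2 the log2 change was -0.37 (adjusted p 0.0207). SELENOT did not pass under 9 of the 16 alternatives run, with adjusted p ranging from 0.0096 to 0.207. Among those 9 were median of ratios scaling (-0.42, adjusted p 0.207) and quantile normalization (-0.39, adjusted p 0.0932).

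SELENOK takes part in protein palmitoylation at the same membrane (ENSGALG00000005391, chromosome 12, 7642056 to 7646168). It was at 132, 119 and 136 TPM in somatic differentiated libraries, against 115, 167 and 117 TPM in undifferentiated libraries. The groups overlapped, and the log2 change of -0.02 (SE 0.17) did not pass, at a limma adjusted p of 0.921. Its sign turned with the scaling, to 0.09 under the median of ratios, and it was 0.15 without undifferentiated library 2 (adjusted p 0.249, in a range of 0.249 to 0.954 over the alternatives run).

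SELENOI, an ethanolamine phosphotransferase of phospholipid synthesis (ENSGALG00000016560, chromosome 3, 104975750 to 104996776), stood at 33.6, 35.2 and 38.7 TPM in somatic differentiated libraries, against 40.7, 33.3 and 41.2 TPM in undifferentiated libraries. These ranges overlapped as well. The log2 change was -0.09 (SE 0.15, limma adjusted p 0.646), and 0.02 under median of ratios scaling.

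SELENOO, a mitochondrial enzyme that attaches AMP to proteins (ENSGALG00000038467, chromosome 1, 20448935 to 20462470), was the least abundant member in somatic differentiated cells. It stood at 7.12, 5.99 and 4.64 TPM in somatic differentiated libraries, against 12.2, 7.82 and 13.5 TPM in undifferentiated libraries. The groups were separated by a narrow gap between somatic differentiated library 1 and undifferentiated library 2. SELENOO fell by 0.80 on the log2 scale (SE 0.26), and at a limma adjusted p of 0.0490 it lay at the edge of the threshold. The adjusted p was 0.0505 when genes had to reach a mean of 5 TPM and 0.0854 with no filter on low values. It was 0.0313 under median of ratios scaling, where SELENOO alone passed as lower, and 0.00434 under quantile normalization. SELENOO did not pass under 9 of the 16 alternatives run, with adjusted p ranging from 0.00434 to 0.168.

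The count of members that fell was thus less firm than the count that rose. GPX3 and TXNRD1 passed under every alternative run and without each library in turn. Only GPX1 passed as lower without somatic differentiated library 1, 2 or 3 or undifferentiated library 3, which leaves 1 member in place of 3. Without undifferentiated library 1, GPX1 and SELENOT passed, and without undifferentiated library 2 all 3 did, with SELENOO then at -1.02 and the 1 member called lower.

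**Figure D4:**
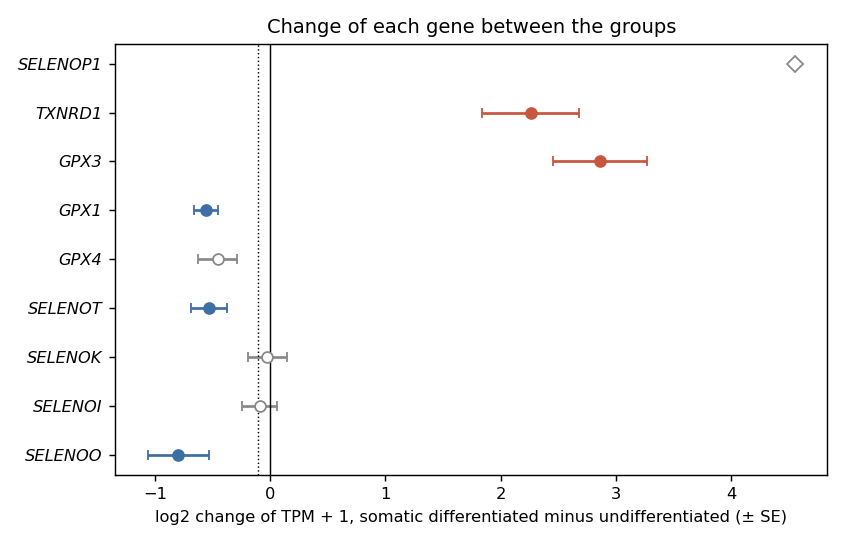
Log2 change of TPM + 1 (x axis, somatic differentiated minus undifferentiated) for the 9 genes, with bars for the SE. Filled points passed at a limma adjusted p under 0.05, open points did not, and the open diamond of SELENOP1 is given without a test or error. The dotted line is the median of all genes tested, -0.11, and the 2 filled points to its right are TXNRD1 and GPX3.

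The order of levels also differed between the groups. In somatic differentiated cells it ran GPX1, GPX4, SELENOK, SELENOT, TXNRD1, SELENOP1, GPX3, SELENOI and SELENOO by mean TPM. There the ranges of SELENOK, SELENOT, TXNRD1, SELENOP1, GPX3 and SELENOI each overlapped with a neighbour among them, while GPX1, GPX4 and SELENOO stood clear of their neighbours. In undifferentiated cells the order was GPX1, GPX4, SELENOT, SELENOK, SELENOI, TXNRD1, SELENOO, GPX3 and SELENOP1. The neighbours that overlapped there were GPX1 with GPX4, SELENOT with SELENOK, TXNRD1 with SELENOO and GPX3 with SELENOP1. In both orders SELENOP1 was placed by its own row alone. Its joint TPM with the overlapping unnamed gene averaged 372 in somatic differentiated cells, above GPX1 at 248, and 21.4 in undifferentiated cells. The place of SELENOP1 thus depends on how reads were divided between these gene models. By mean TPM among all genes tested, GPX1 ranked above or level with 95.4% of genes in somatic differentiated cells and 96.9% in undifferentiated cells. GPX3 ranked at 67.6% in somatic differentiated cells and at 19.8% in undifferentiated cells.

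The spread among somatic differentiated libraries differed between members. The coefficient of variation over the 3 somatic differentiated libraries was 51.0% for TXNRD1, 47.6% for SELENOP1 and 47.2% for GPX3. It was 21.0% for SELENOO, and 0.641% to 7.29% for SELENOT, GPX4, GPX1, SELENOK and SELENOI. The unnamed gene over nearly the same bases as SELENOP1 had a coefficient of 17.3%. Their joint TPM was 372 ± 93.6 (SD). How the division of reads between these gene models enters the spread of SELENOP1 cannot be seen from TPM. TXNRD1, SELENOP1 and GPX3 were each highest in somatic differentiated library 1. TXNRD1 and GPX3 were lowest in library 2, and SELENOP1 in library 3.

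Other genes of the pathway were read in 5 lists. The shares over all genes tested, to be read beside their counts, were 17.9% passing as higher and 22.0% as lower. They belong to the fit reported. On leaving out single libraries 1680 to 2283 of all genes passed as higher and 1542 to 4150 as lower. Of the other selenoprotein genes, 9 of 17 listed were tested, and 3 rose and 1, TXNRD3, fell, with a median log2 change of 0.61. DIO2, which activates thyroid hormone, rose to 14.1, 18.1 and 5.76 TPM in somatic differentiated libraries, against 2.45, 2.10 and 2.28 TPM in undifferentiated libraries (log2 change 1.93, limma adjusted p 0.00861). SELENOS, a part of the machinery that exports misfolded proteins from the endoplasmic reticulum, rose to 159, 149 and 161 TPM in somatic differentiated libraries, against 83.1, 87.7 and 95.3 TPM in undifferentiated libraries (0.81, adjusted p 0.00246 by limma). Its span overlaps 1 other gene on each strand, and the higher of these averaged 267 TPM over the 6 libraries, above SELENOS itself. SELENOF, a partner of a glycoprotein folding sensor, had 69.6, 57.7 and 77.2 TPM in somatic differentiated libraries, against 43.0, 34.1 and 39.9 TPM in undifferentiated libraries (0.79, limma adjusted p 0.00974). Without somatic differentiated library 2, 5 genes of the list rose in place of 3. Over all genes, 2034 then passed as higher in place of 2331.

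The list of selenocysteine synthesis and insertion, which also holds LRP8, LRP2, SELENBP1 and EIF4A3, gave 2 higher and 4 lower of 15 tested, with a median of -0.21. EEFSEC, the elongation factor that brings selenocysteine to the ribosome, fell to 25.6, 23.9 and 23.9 TPM in somatic differentiated libraries, against 47.1, 36.3 and 46.3 TPM in undifferentiated libraries (-0.79, limma adjusted p 0.00833). EIF4A3, which in rat binds some selenoprotein mRNAs and limits their translation, fell by 0.59 and SARS, the seryl-tRNA synthetase, by 0.58 (limma adjusted p 0.00351 and 0.0390). SECISBP2L, a relative of the SECIS-binding protein SECISBP2, rose to 51.0, 50.5 and 40.4 TPM in somatic differentiated libraries, against 19.5, 6.80 and 17.4 TPM in undifferentiated libraries (1.74, limma adjusted p 0.0103). SECISBP2 itself overlapped between groups and did not pass (-0.63, limma adjusted p 0.105). LRP8, a receptor for selenoprotein P in mouse, rose by 1.14 (limma adjusted p 0.0385). LRP2, the kidney receptor for selenoprotein P in mouse, was at 11.0, 22.5 and 10.9 TPM in somatic differentiated libraries, against 72.0, 11.4 and 65.3 TPM in undifferentiated libraries, and did not pass (limma adjusted p 0.148). Under median of ratios scaling 1 gene passed as lower in place of 4. The higher count was 1 without somatic differentiated library 1 or 2 or undifferentiated library 3, and the lower count was 2 without any of these 3 or undifferentiated library 1.

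The list of glutathione synthesis and recycling, which also holds glutathione S-transferases and glutaredoxins, gave 10 higher and 2 lower of 27 tested, with a median of 0.71. Besides GPX8, GPX7 and IDH1, those higher were GLRX, PGD and the transferases GSTA2, GSTK1, GSTM2, GSTZ1 and MGST2. GPX8 and GPX7, peroxidases of the endoplasmic reticulum that use cysteine in place of selenocysteine in mammals, were among the largest changes. GPX8 had 42.5, 33.3 and 36.7 TPM in somatic differentiated libraries, against 3.74, 3.39 and 4.003 TPM in undifferentiated libraries (3.02, limma adjusted p 0.000249). GPX7 had 13.5, 8.15 and 15.2 TPM in somatic differentiated libraries, against 1.61, 0.807 and 1.32 TPM in undifferentiated libraries (2.54, limma adjusted p 0.00147). IDH1, a cytosolic source of NADPH, rose by 2.82 (limma adjusted p 0.00458), with widely spread levels of 878, 607 and 219 TPM in somatic differentiated libraries, against 78.9, 62.6 and 65.3 TPM in undifferentiated libraries. The enzymes that make glutathione, GCLC, GCLM and GSS, and the reductase GSR did not pass, with log2 changes of -0.20 to 0.23. GLRX2 and CHAC2 fell by 0.65 each (limma adjusted p 0.0142 and 0.0408), and CHAC2 is overlapped on the other strand by a gene with a mean of 27.99 TPM over the 6 libraries. The higher count was 6 without somatic differentiated library 1 and 5 without undifferentiated library 3, and the lower count was 0 without somatic differentiated library 1 and 1 without somatic differentiated library 2 or 3 or undifferentiated library 1 or 3.

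Among thioredoxins, peroxiredoxins and oxidant enzymes, 6 of 16 tested rose and 0 fell by limma, with a median of 0.22. At an unadjusted p under 0.05 the limma fit gave 7 higher and 0 lower. No share of all genes at that threshold is given here, so these 2 counts are only a description. TXN, the substrate of TXNRD1, rose to 10406, 7772 and 5220 TPM in somatic differentiated libraries, against 1868, 2572 and 1807 TPM in undifferentiated libraries (1.87, limma adjusted p 0.00271). TXNIP, which binds and inhibits thioredoxin, rose by 1.98 (limma adjusted p 0.00103). MSRB3, a methionine sulfoxide reductase, rose to 59.0, 51.1 and 53.9 TPM in somatic differentiated libraries, against 8.64, 6.71 and 7.01 TPM in undifferentiated libraries (2.72, limma adjusted p 0.000262). Of the peroxiredoxins, PRDX6 rose to 519, 313 and 354 TPM in somatic differentiated libraries, against 188, 165 and 172 TPM in undifferentiated libraries (1.14, limma adjusted p 0.00481), while PRDX1, PRDX3 and PRDX4 did not pass. SRXN1, the sulfiredoxin that repairs overoxidized peroxiredoxins, rose by 1.82 (limma adjusted p 0.0026), and the superoxide dismutases SOD1 and SOD2 did not pass.

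In the list of the NRF2 axis and lipid peroxidation, 4 of 14 tested rose and 2 fell, with a median of 0.58. NFE2L2, which encodes the oxidant-responsive transcription factor NRF2, rose to 209, 152 and 129 TPM in somatic differentiated libraries, against 63.5, 56.5 and 66.5 TPM in undifferentiated libraries (1.35, limma adjusted p 0.00275). ALOX5, a lipoxygenase, rose by 2.19 and the autophagy receptor gene SQSTM1 by 1.12 (limma adjusted p 0.0324 and 0.0423). MAFK and MAFG, small MAF partners of NRF2, fell by 0.59 and 0.54 (limma adjusted p 0.0284 and 0.0419). FTH1, the ferritin heavy chain and among the known NRF2 targets of mammals, rose by 1.01 (limma adjusted p 0.00905). It stood at 3997, 2356 and 2393 TPM in somatic differentiated libraries, against 1402, 1418 and 1387 TPM in undifferentiated libraries. HMOX1 and NQO1, also known targets, overlapped between groups and did not pass, and the row of NQO1 is listed as a pseudogene. The higher count was 2 without undifferentiated library 2. The lower count was 0 without somatic differentiated library 1, 2 or 3 or undifferentiated library 1 or 3.

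**Figure D5:**
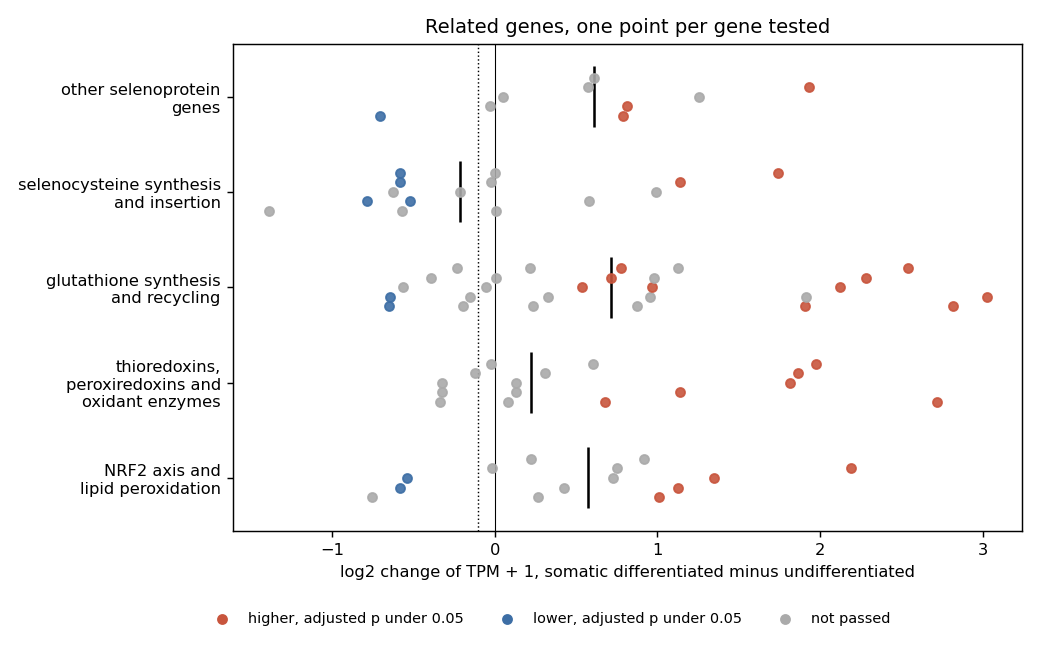
Log2 change of TPM + 1 (x axis, somatic differentiated minus undifferentiated) of each gene tested in the 5 lists (rows); vertical shifts within a row only separate points. Red points passed as higher and blue as lower at a limma adjusted p under 0.05, grey points did not pass, black bars are list medians, and the dotted line is the median of all genes. Medians run from -0.21 for selenocysteine synthesis and insertion to 0.71 for glutathione synthesis and recycling.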

How the data were processed

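The authors deposited 1 table of gene-level TPM values for the 6 libraries (3 per group), from polyA RNA and SMARTer stranded libraries per the labels' protocols. The submitters' processing notes name FastQC 0.11.9, Trimmomatic 0.39, Trim Galore 0.6.6, cutadapt 3.1, STAR 2.7.3a, RSEM 1.3.1 and the build GRCg6a, without roles. Neither the annotation release nor the use of strand in counting is given in the sources used here. All 6 value columns were matched to samples by their descriptions.

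Values were tested on the log2(TPM + 1) scale, which understates changes of genes with low TPM, by limma 3.58.1 (R 4.3.3) over genes averaging 1 TPM or more. The fit had no covariates and a variance trend, and p-values were two-sided with Benjamini-Hochberg adjustment. The alternatives changed the pseudocount, filter, scaling, variance model and library weights, added the replicate number, or left out 1 library. The plan counted 9 members besides SELENOP1, of which 8 had a row. The code was tested on simulated data. Members were matched by exact symbol, and 2 listed genes by a RefSeq synonym (SEPHS1 as SEPHS2L, SARS1 as SARS). All members were named whatever their result, as were the 3 genes closest in profile to SELENOP1 among those averaging at least 10 TPM in either group. Named list genes were at most the 3 largest changes in each direction that passed, and others named beside them were chosen after their values were seen, as was the check for overlapping gene models. Members and lists were chosen with earlier results of these data known. Lists for erythroid, leukocyte and endothelial cells summed to 3.74 to 21.0, 10.1 to 19.5 and 49.9 to 106 TPM in somatic differentiated libraries, against 0.837 to 3.85, 10.1 to 12.9 and 11.7 to 20.5 TPM in undifferentiated libraries. In the endothelial list CDH5 and ERG passed as higher by limma, KDR passed as lower, PECAM1 did not pass, and TEK, TIE1 and VWF were not tested. CDH5 stood at 12.5, 91.0 and 31.9 TPM in somatic differentiated libraries, against 3.99, 2.85 and 3.92 TPM in undifferentiated libraries. KDR stood at 1.45, 1.09 and 1.92 TPM in somatic differentiated libraries, against 7.10, 2.19 and 5.45 TPM in undifferentiated libraries. HBA1 and HBE1 were listed at 0 in every library. Plots were made with matplotlib 3.10.9 in Python 3.11.15.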

Additional observations from a re-analysis of the deposited data

How the results depend on the processing

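TPM holds no depth, so counting error at low levels is unknown, and with 3 libraries per group the spread rests on few values. GPX3 and TXNRD1 passed as higher under all 16 alternatives. The number of members passing as lower was 3 in the fit reported. It was 1 with median of ratios scaling (SELENOO) and 1 without the 10 most abundant genes (GPX1). On leaving out single libraries it was 1 to 3. Members called lower numbered 1 with quantile normalization and 0 to 1 on leaving out single libraries. SELENOK turned positive on the log2 scale, at 0.0923 with median of ratios scaling, 0.10 with quantile normalization, 0.0147 without the 10 most abundant genes and 0.12 with array weights, and ranged from -0.12 to 0.15 on leaving out libraries. SELENOI was 0.0219 with median of ratios scaling. The GPX4 share difference ranged from -3.17 to 0.57 points on leaving out single libraries and was -4.21 points of the sum of all 8 tested members.

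With array weights, 3132 of all genes passed as higher and 4683 as lower, where 2331 and 2854 did in the fit reported. Other selenoprotein genes gave 5 higher with these weights, the selenocysteine synthesis list 4 higher and 7 lower, and the thioredoxin list 1 lower. A pseudocount of 5 left 529 genes called lower. With no filter, the selenocysteine list had 1 higher, the NRF2 list 2 higher and 1 lower, and the glutathione list 1 lower. The glutathione list also had 1 lower at a mean of at least 5 TPM, and with median of ratios scaling the selenocysteine, glutathione and NRF2 lists had 1 lower each. Without the 10 most abundant genes the NRF2 list had 1 lower. Leaving out single libraries gave 1680 to 2283 of all genes passing as higher and 1542 to 4150 as lower. Other selenoprotein genes then gave 3 to 5 higher, and selenocysteine genes 1 to 2 higher and 2 to 6 lower. Glutathione genes gave 5 to 10 higher and 0 to 2 lower, and NRF2 genes 2 to 4 higher and 0 to 3 lower. The cause of these moves was not tested.

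Same-numbered libraries correlated at 0.19, 0.01 and 0.14 in their deviations from the group means. Libraries 1 and 3 of the somatic differentiated group correlated best with their own number. Somatic differentiated library 2 correlated best with undifferentiated library 3, at 0.11. Whether same-numbered libraries share a culture or batch was not stated and cannot be told from these correlations. With the replicate block, 2211 genes passed as lower in place of 2854, 1 member (GPX1) passed as lower, and the glutathione and NRF2 lists had 1 and 0 lower.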
